A study of Rattus norvegicus with 14 samples.

Results

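The subject here is the Zfp and Znf genes of the rat hippocampus, a large group of genes whose proteins carry zinc fingers. Members were the genes with a symbol of Zfp or Znf followed by digits alone, without Zfp36, and with a mean of 3 or more FPKM over all 14 libraries. FPKM scale fragments by transcript length and library total, so a level can be compared between genes. The rule took 120 of 259 such genes, in files that list 22601 genes, and 117 of the 120 have a Zfp symbol while 3 have a Znf symbol (Znf48, Znf740 and Znf768). The mean level of each member was therefore used to choose it, and levels are given as a description.

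Hippocampi of wild-type Wistar rats of 180 to 220 g were sequenced in 3 groups, each rat being assigned at random. PTZ+Q808 rats (n = 5) received pentylenetetrazole and Q808, PTZ rats (n = 5) received pentylenetetrazole and vehicle, and control rats (n = 4) received vehicle alone. Pentylenetetrazole (PTZ) is a convulsant that blocks GABA-A receptors, and Q808 is a compound given here by its code name. The labels leave out dose, sampling time and sex. Where replicates are not separate animals the p-values measure only the spread between these samples.

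Most Zfp and Znf proteins belong to the C2H2 class. In each finger a pair of cysteines and a pair of histidines hold a zinc ion, and the finger reads a few bases of DNA. Many mammalian members also carry a KRAB domain, which binds Trim28 (KAP1), a scaffold for histone methylation and gene silencing. Others are not transcription factors in the classical sense: they bind double-stranded RNA, watch over stalled ribosomes or attach ubiquitin. The deposited annotation put 82 of the 120 members in the transcription factor family zf-C2H2 and 3 in ZBTB, and gave the other 35 no family. Its Gene Ontology terms place 80 of 120 in the nucleus, and 14 have the term for negative and 14 that for positive regulation of RNA polymerase II transcription.

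The 250 bases before and 50 bases after the start of transcription are given from RefSeq (build GRCr8) for 3 members. These 3 are among the members that passed the test in PTZ+Q808 versus control. They are Zfp638, the member that was higher, and Zfp282 and Zfp346, which were lower. Each runs 5′ to 3′ on the strand of its gene, and capitals mark GC boxes (GGGCGG) and CCAAT boxes (CCAAT) on either strand.
Zfp638, chr4:117959801-117960100, plus strand: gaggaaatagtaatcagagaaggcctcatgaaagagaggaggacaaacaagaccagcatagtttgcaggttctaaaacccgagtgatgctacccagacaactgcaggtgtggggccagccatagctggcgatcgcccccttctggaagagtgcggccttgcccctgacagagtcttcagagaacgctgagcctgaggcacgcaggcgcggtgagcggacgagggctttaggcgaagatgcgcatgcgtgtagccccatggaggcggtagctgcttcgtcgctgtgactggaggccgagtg
Zfp282, chr4:78215690-78215989, plus strand: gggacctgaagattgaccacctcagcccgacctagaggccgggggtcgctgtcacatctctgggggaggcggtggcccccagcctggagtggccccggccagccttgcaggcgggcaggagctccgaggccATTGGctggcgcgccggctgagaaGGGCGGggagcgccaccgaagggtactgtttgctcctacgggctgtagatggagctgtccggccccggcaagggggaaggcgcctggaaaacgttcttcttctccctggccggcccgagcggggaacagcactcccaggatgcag
Zfp346, chr17:9528734-9529033, minus strand: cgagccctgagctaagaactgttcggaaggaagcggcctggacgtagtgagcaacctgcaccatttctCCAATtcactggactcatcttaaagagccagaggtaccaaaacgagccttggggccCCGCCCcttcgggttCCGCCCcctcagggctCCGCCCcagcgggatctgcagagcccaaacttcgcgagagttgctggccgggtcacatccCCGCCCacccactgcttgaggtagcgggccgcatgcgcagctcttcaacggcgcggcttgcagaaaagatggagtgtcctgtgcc
The Zfp638 window, with a GC content of 58.3%, held 0 matches to either motif. The Zfp282 window (69.0% GC) held 1 GC box and 1 CCAAT box, and the Zfp346 window (62.0% GC) held 4 GC boxes and 1 CCAAT box, with no overlap between the capital runs. Of the other lower members that passed, Znf48 held 4 GC boxes and 0 CCAAT boxes, and Zfp646 held 1 GC box and 2 CCAAT boxes. Their windows are not printed, and none was found for Zfp394.

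Promoter windows were found for 102 of the 120 members and compared with those of 18999 protein-coding genes, searching both strands. GC boxes were in 55.9% of member promoters and 43.1% of coding promoters, CCAAT boxes in 43.1% and 38.4%, and the ETS motif CCGGAAG in 17.6% and 11.2%. The 2 motifs of activity-dependent factors were no more common among members, in counts that were small. The cyclic AMP response element TGACGTCA was in 2 of 102 member promoters (1.96%) and 2.22% of coding promoters. The AP-1 motif TGANTCA was in 5 of 102 (4.9%) and 6.65%. The median GC content was 58.8% in members and 55.3% in coding genes. These shares describe the letters in the windows and were not tested.

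Among the members the mean level ran from 3.0 to 70.8 FPKM, with a median of 5.61 FPKM. Most were low: 82 lay between 3 and 8 FPKM, 38 reached 8 FPKM and 10 reached 20 FPKM. The 8 highest members carried 28.5% of the summed level of 1090 FPKM. Just inside the limit of 3 stood Zfp710 at 3.005 FPKM and Zfp324 at 3.13 FPKM, and just outside it Zfp40 at 2.999 FPKM and Zfp182 at 2.973 FPKM.

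**Figure D1:**
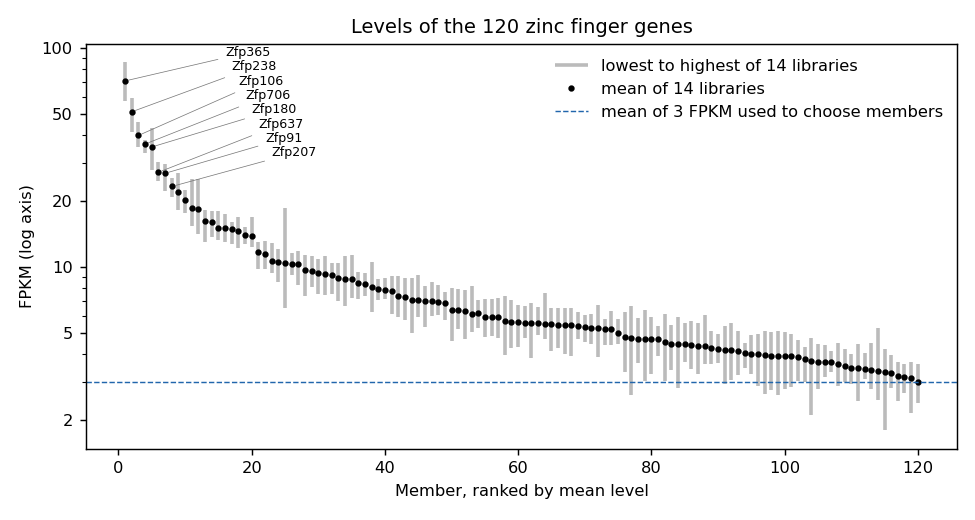
Mean level of each of the 120 members in FPKM on a log axis, ranked from high to low, with grey bars from the lowest to the highest of 14 libraries. The curve falls from 70.8 FPKM (Zfp365) to 3.0 FPKM, and 82 of 120 members lie between 3 and 8 FPKM.

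Zfp365, a brain-enriched gene also called DBZ, had the highest level. It measured 79.2, 57.5, 74.3, 76.1 and 69.8 FPKM in the PTZ+Q808 libraries, 60.4, 69.2, 86.0, 74.0 and 68.8 FPKM in the PTZ libraries and 61.4, 71.1, 72.5 and 70.5 FPKM in the control libraries. The 3 groups overlapped throughout, and the log2 change was 0.05 ± 0.102 (SE) in PTZ+Q808 versus control. Zfp238 (current symbol Zbtb18), a repressor required for cortical and hippocampal neuron development in mice, averaged 50.9 ± 6.33 FPKM in PTZ+Q808 (SD, n = 5), 52.6 ± 4.86 FPKM in PTZ (n = 5) and 49.7 ± 4.83 FPKM in control (n = 4). Neither of these highest members passed the test in any comparison.

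The next 6 were Zfp106 at 39.9 FPKM, Zfp706 at 36.5, Zfp180 at 35.4, Zfp637 at 27.1, Zfp91 at 26.8 and Zfp207 at 23.3 FPKM. Zfp106 is an RNA-binding protein, Zfp91 an E3 ubiquitin ligase of the noncanonical NF-kB pathway, and Zfp207 (BuGZ) a spindle assembly factor. Zfp207 had the smallest spread of all members, with a coefficient of variation within groups of 4.23%, followed by Zfp706 at 4.28%. Its means were 22.2 ± 1.32 FPKM in PTZ+Q808, 23.4 ± 0.688 FPKM in PTZ and 24.7 ± 0.78 FPKM in control (SD, n = 5, 5 and 4), and its log2 change in PTZ+Q808 versus control was -0.15 ± 0.0492 (limma adjusted p = 0.1).

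The coefficient of variation within groups had a median of 10.8% over the members and exceeded 20% in 5: Zfp189 (28.9%), Zfp319 (23.0%), Zfp395 (22.6%), Zfp704 (22.1%) and Zfp652 (21.6%). Zfp189 is a target of the activity-dependent factor CREB in mouse cortex, and was chosen for description after its values were seen because it had the largest log2 change. It measured 12.1, 10.8, 9.26, 9.94 and 18.6 FPKM in PTZ+Q808, 7.96, 10.1, 8.51, 13.6 and 15.2 FPKM in PTZ, and 6.51, 7.7, 7.43 and 9.06 FPKM in control. Every PTZ+Q808 library was above every control library, and PTZ+Q808 replicate 5 and PTZ replicates 4 and 5 were the highest of all. The log2 change was 0.56 ± 0.199 in PTZ+Q808 versus control (adjusted p = 0.129), 0.45 ± 0.199 in PTZ versus control (0.594) and 0.12 ± 0.188 in PTZ+Q808 versus PTZ (0.95), so it was called in none.

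For the comparisons, log2(FPKM + 1) values of 12744 genes with at least 1 FPKM in at least 4 libraries were fitted with limma. Called means an adjusted p (Benjamini-Hochberg, all 12744 genes) under 0.05. All 120 members passed that filter. The 3 comparisons share samples in pairs, so their results are not independent of each other. In bulk tissue, fewer cells of a type and less RNA per cell cannot be told apart.

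Libraries differed in ways that the groups do not account for. Ttr, the choroid plexus transcript, was at 329 FPKM in PTZ+Q808 replicate 1, 113 in PTZ replicate 2 and 54.5 in control replicate 3, against 1320 to 7130 FPKM in the other 11 libraries. Control replicate 2 was high in striatal markers, and PTZ+Q808 replicate 3 in pituitary hormone genes. Neuronal and glial markers were present in every group, as were most hippocampal markers. The hippocampal markers Zbtb20, Fibcd1 and Spink8 were low, with medians over all libraries of 2.02, 1.28 and 0.119 FPKM. Y-linked transcripts reached 1 FPKM in 3 of 5 PTZ+Q808, 3 of 5 PTZ and 2 of 4 control libraries.

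The comparison of PTZ+Q808 with control asks how hippocampi of treated, PTZ-exposed rats stand against those of rats given neither agent. Of the 120 members, 1 was called higher in PTZ+Q808 and 5 were called lower. Zfp638 was the higher one, and Zfp394, Zfp282, Zfp346, Znf48 and Zfp646 were the lower ones, by 0.29 to 0.47 on the log2 scale. The 6 called members are 5.0% of 120, and 2.87% of all genes tested were called. By direction, 4.17% of members were called lower, where 0.934% of all genes were, and 0.833% of members were called higher, where 1.94% of all genes were. Of the 81 Zfp and Znf genes tested below the limit of 3 FPKM, 2 were called higher and 2 lower. The higher ones, Zfp40 and Zfp182, lie just outside that limit.

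Zfp638 is the counterpart of human ZNF638 (NP220), a nuclear protein that takes part in splicing and brings the HUSH silencing complex to unintegrated retroviral DNA. It measured 10.6, 10.7, 11.4, 10.3 and 10.3 FPKM in PTZ+Q808, 9.28, 11.4, 8.86, 10.5 and 10.4 FPKM in PTZ, and 7.36, 9.63, 7.42 and 7.55 FPKM in control. All 5 PTZ+Q808 libraries lay above all 4 control libraries, and control replicate 2 stood apart from the other controls. The log2 change in PTZ+Q808 versus control was 0.38 ± 0.0827 (adjusted p = 0.0307), and it was 0.47 without control replicate 2. In PTZ versus control it was 0.30 ± 0.0827, which did not pass (adjusted p = 0.394).

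Zfp394 is the counterpart of human ZNF394, which lowers AP-1 reporter activity in cultured cells. It measured 2.8, 4.21, 3.3, 4.08 and 3.57 FPKM in PTZ+Q808, 4.45, 4.91, 4.8, 4.31 and 4.94 FPKM in PTZ, and 4.64, 5.69, 5.9 and 5.12 FPKM in control. The PTZ+Q808 libraries overlapped neither of the other groups, while PTZ and control overlapped. The log2 change was -0.47 ± 0.0943 in PTZ+Q808 versus control (adjusted p = 0.0243), the most negative of all members. In PTZ+Q808 versus PTZ it was -0.32 ± 0.0889, which did not pass (adjusted p = 0.76).

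Zfp282, whose human counterpart ZNF282 (HUB1) binds a repressive element of the HTLV-1 long terminal repeat, measured 3.76, 3.32, 3.15, 3.93 and 3.05 FPKM in PTZ+Q808, 4.76, 4.44, 4.35, 3.73 and 3.98 FPKM in PTZ, and 5.56, 4.14, 5.22 and 5.09 FPKM in control. PTZ+Q808 lay below control in every library, and PTZ overlapped both. The log2 change in PTZ+Q808 versus control was -0.43 ± 0.0897 (adjusted p = 0.0272).

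Zfp346 (JAZ), which binds double-stranded RNA, measured 8.75, 9.04, 7.55, 9.04 and 7.74 FPKM in PTZ+Q808, 10.4, 9.94, 8.71, 9.05 and 9.71 FPKM in PTZ, and 10.3, 10.3, 10.9 and 10.6 FPKM in control. The control libraries were tightly grouped and above every PTZ+Q808 library, with PTZ spread across both. The log2 change in PTZ+Q808 versus control was -0.29 ± 0.067 (adjusted p = 0.0364).

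Znf48 measured 6.24, 8.11, 6.88, 7.85 and 6.27 FPKM in PTZ+Q808, 8.43, 8.06, 8.61, 7.42 and 7.71 FPKM in PTZ, and 8.59, 8.39, 10.0 and 10.6 FPKM in control. The highest PTZ+Q808 library was just under the lowest control library, and the log2 change was -0.37 ± 0.0877 (adjusted p = 0.0409). Zfp646 measured 2.95, 3.7, 3.24, 4.22 and 2.65 FPKM in PTZ+Q808, 4.3, 4.41, 3.8, 3.08 and 3.99 FPKM in PTZ, and 4.83, 5.14, 4.44 and 4.8 FPKM in control. Both PTZ+Q808 and PTZ lay wholly below control for Zfp646, with a log2 change of -0.42 ± 0.107 in PTZ+Q808 versus control (adjusted p = 0.0482) and -0.25 ± 0.107 in PTZ versus control (adjusted p = 0.594).

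**Figure D2:**
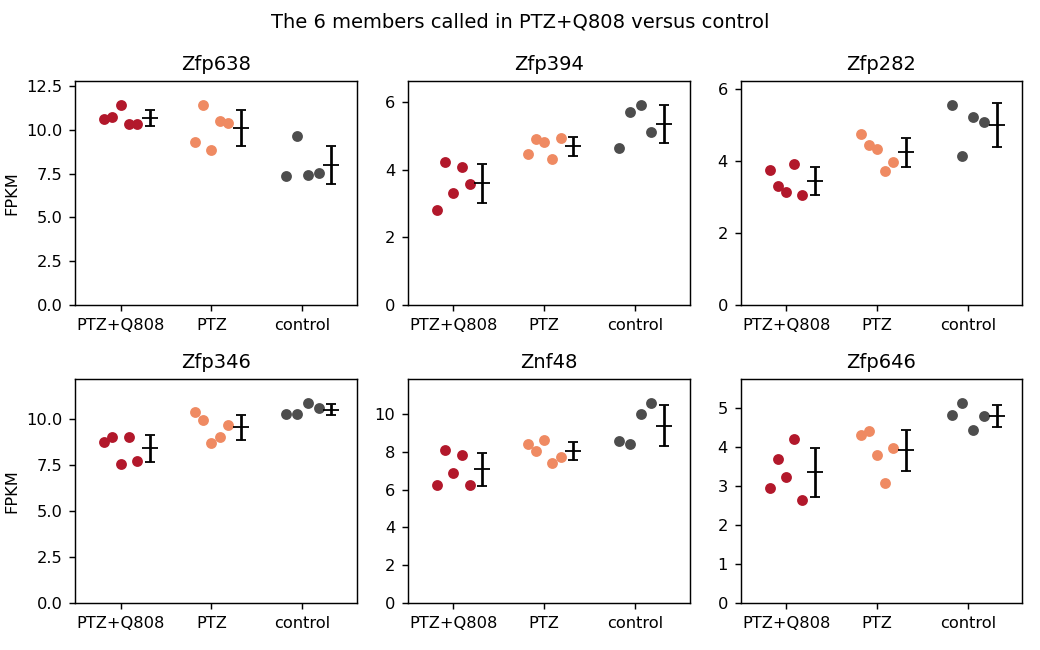
Level in FPKM of the 6 called members in each library of PTZ+Q808 (n = 5), PTZ (n = 5) and control (n = 4), with the group mean and SD in black. Zfp638 lies higher in every PTZ+Q808 library than in any control library, and Zfp394, Zfp282, Zfp346, Znf48 and Zfp646 lie lower.

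These calls depended on single libraries. The number of called members was 0 without control replicate 1, 3 or 4, without PTZ+Q808 replicate 1, 3 or 5, and without the 3 libraries low in Ttr together, against 15 without PTZ+Q808 replicate 4, 10 without PTZ+Q808 replicate 2 and 5 without control replicate 2. The count over all genes tested, 366 in the main fit, moved as well. It was 17, 40 and 54 without control replicates 1, 3 and 4. Without PTZ+Q808 replicates 1, 3 and 5 it was 32, 72 and 38, and without the 3 libraries low in Ttr 0. It was 673 without PTZ+Q808 replicate 4, 347 without PTZ+Q808 replicate 2 and 281 without control replicate 2. The signs of the 6 changes were kept in all of those fits. The log2 changes were 0.35 to 0.47 for Zfp638, -0.57 to -0.36 for Zfp394, -0.53 to -0.39 for Zfp282, -0.32 to -0.26 for Zfp346, -0.43 to -0.30 for Znf48 and -0.52 to -0.36 for Zfp646 over all alternatives tried. Each of the 6 also kept its sign in the libraries with Y-linked transcripts (3 against 2) and in those without (2 against 2). The smallest change in either set was -0.18 for Zfp346 and for Znf48 with Y-linked transcripts, against -0.44 and -0.58 without.

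Beyond the called genes, more of the members leaned down than up in PTZ+Q808 versus control. The log2 change was negative in 75 of 120 members (62.5%) and in 55.3% of all genes tested, and the median was -0.07 in members and -0.02 in all genes. At an unadjusted p under 0.05 there were 36 lower members (30.0%, with 10.7% of all genes) and 12 higher ones (10.0%, with 10.0% of all genes). The PTZ+Q808 and control libraries did not overlap in 20 members (16.7%, with 8.91% of all genes). Of these, 15 were lower (12.5%, with 4.17% of all genes) and 5 were higher (4.17%, with 4.75% of all genes). The 5 higher were Zfp638, Zfp717, Zfp386, Zfp189 and Zfp131, named after their values were seen.

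Among the higher members that did not pass, Zfp717 came nearest. It averaged 16.3 ± 0.934 FPKM in PTZ+Q808, 15.4 ± 1.6 FPKM in PTZ and 13.3 ± 0.382 FPKM in control (SD, n = 5, 5 and 4), a log2 change of 0.27 ± 0.0693 (limma adjusted p = 0.0514) in PTZ+Q808 versus control. Zfp386 averaged 6.11 ± 0.413 FPKM in PTZ+Q808, 5.05 ± 0.763 FPKM in PTZ and 4.58 ± 0.703 FPKM in control, a log2 change of 0.36 ± 0.1 (0.0683). Zfp445, a KRAB zinc finger protein that protects imprinted loci in mice and humans, averaged 10.1 ± 0.578 FPKM in PTZ+Q808, 10.0 ± 0.888 FPKM in PTZ and 8.56 ± 0.58 FPKM in control, a log2 change of 0.22 ± 0.069 (0.0961). Lower members came as near, named after their values were seen. They were Zfp275 (-0.36, limma adjusted p = 0.0507), Zfp46 (-0.31, 0.052), Zfp12 (-0.38, 0.0537), Zfp623 (-0.42, 0.0547) and Zfp956 (-0.36, 0.0547).

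**Figure D3:**
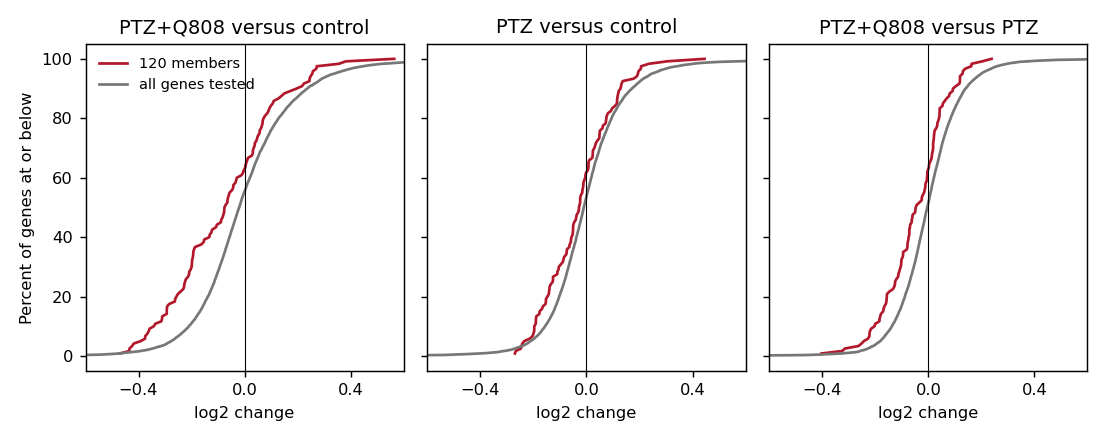
Cumulative share of genes (percent) by log2 change for the 120 members (red) and all 12744 genes tested (grey) in the 3 comparisons. The member curve lies left of the grey one over most of its range, with medians of -0.07 against -0.02 in PTZ+Q808 versus control, -0.03 against -0.01 in PTZ versus control and -0.05 against -0.004 in PTZ+Q808 versus PTZ.

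The downward lean differed with level. Among the 40 members of lowest mean (3.0 to 4.69 FPKM), 30 of 40 had a negative log2 change in PTZ+Q808 versus control and the median was -0.19. For the 1259 genes tested in the same band of levels the median was -0.02, and 54.9% were negative. The 40 members of middle level (4.71 to 7.75 FPKM) had 27 of 40 negative and a median of -0.08, where the 1633 genes in its band had -0.02. The 40 highest members (7.84 to 70.8 FPKM) had 18 of 40 negative and a median of 0.01, where the 6101 genes in its band had -0.02. Below the limit for members, 81 of the 139 Zfp and Znf genes passed the filter. Their median was -0.09, and 4 were called: Zfp182 (0.41) and Zfp40 (0.36) higher, Zfp263 (-0.28) and Zfp629 (-0.38) lower. The difference between these level classes was not tested. The zf-C2H2 members had a median of -0.08 over 82 genes and the other 38 members had -0.06.

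Grouped by what their proteins do, the members that act on RNA, ribosomes or protein turnover were split. Of 10 such members, 5 had positive and 5 negative log2 changes in PTZ+Q808 versus control (median 0.01), with Zfp638 called higher and Zfp346 called lower. Zfp106 and Zfp91, the most abundant of them, had -0.08 ± 0.0755 (limma adjusted p = 0.577) and 0.15 ± 0.07 (0.243). Zfp598, the E3 ligase that senses collided ribosomes, averaged 7.98 ± 0.694 FPKM in PTZ+Q808, 9.44 ± 0.816 FPKM in PTZ and 9.36 ± 0.359 FPKM in control (SD, n = 5, 5 and 4). Its log2 change was -0.21 ± 0.0711 in PTZ+Q808 versus control (adjusted p = 0.116) and -0.22 ± 0.067 in PTZ+Q808 versus PTZ (0.76).

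The 6 members of the list linked to the nervous system through brain development, brain expression or neurodevelopmental disorders (Zfp365, Zfp238, Zfp148, Zfp335, Zfp423 and Zfp142) had 4 positive values and a median of 0.04, and 0 were called. The 7 members of the list linked to chromatin regulation had 5 negative values and a median of -0.20, and 0 were called. The 5 negative ones were Zfp532, Zfp827, Zfp410, Zfp219 and Zfp592. The most abundant of the 7 went the other way in value. Zfp644, a partner of the histone methyltransferase G9a, averaged 8.02 ± 0.588 FPKM in PTZ+Q808, 8.05 ± 0.363 FPKM in PTZ and 7.35 ± 0.208 FPKM in control (SD, n = 5, 5 and 4). Zfp281, a regulator of pluripotency genes, averaged 7.85 ± 1.29 FPKM in PTZ+Q808, 7.56 ± 0.602 FPKM in PTZ and 6.28 ± 0.629 FPKM in control, a log2 change of 0.27 ± 0.105 (adjusted p = 0.16) in PTZ+Q808 versus control.

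The corepressors through which KRAB zinc finger proteins silence genes were called about as often as all genes. Of 26 such genes 1 (3.85%, with 2.87% of all genes tested) was called in PTZ+Q808 versus control, and the median log2 change was -0.02 in both the list and all genes. The called one was Rbbp7, a histone-binding subunit of several chromatin complexes, which averaged 74.2 ± 7.43 FPKM in PTZ+Q808, 66.9 ± 6.89 FPKM in PTZ and 58.6 ± 2.15 FPKM in control (log2 change 0.33 ± 0.0819, adjusted p = 0.046). Trim28 measured 45.1, 50.0, 47.8, 50.6 and 50.8 FPKM in PTZ+Q808, 49.2, 50.6, 51.9, 50.1 and 48.2 FPKM in PTZ, and 53.4, 50.2, 56.7 and 50.4 FPKM in control. PTZ+Q808 and control overlapped for Trim28, with a log2 change of -0.11 ± 0.05 (adjusted p = 0.245). In the other comparisons 0 of the 26 were called. The smallest p-values in PTZ versus control were those of Setdb1, the histone H3 lysine 9 methyltransferase of this pathway (-0.15 ± 0.0535, adjusted p = 0.514), of Fam208a, a HUSH subunit (0.19 ± 0.0713, 0.536), and of Rbbp7 (0.18 ± 0.0819, 0.594). In PTZ+Q808 versus PTZ they were those of Mta2 (-0.14 ± 0.0576, 0.76), Ehmt1 (-0.18 ± 0.0767, 0.77) and Morc2 (-0.16 ± 0.0751, 0.801).

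Other zinc finger families were set beside the members in PTZ+Q808 versus control. The Zbtb genes, which join C2H2 fingers to a BTB domain, had negative values in 24 of 31 with a median of -0.12, and 3 were called lower (9.68%, with 0.934% of all genes). These were Zbtb47 (-0.30 ± 0.074, limma adjusted p = 0.0482), Zbtb48, a telomere-binding protein in human cells (-0.46 ± 0.0943, 0.0272), and Zbtb49 (-0.39 ± 0.0754, 0.023). The 10 Zscan and Zkscan genes had a median of -0.04, and the 21 Zdhhc genes, which encode palmitoyl transferases, had -0.05, with Zdhhc7 called lower (-0.27 ± 0.0555, adjusted p = 0.0272). Of 16 Zfp genes whose symbol ends in a letter (median -0.04), Zfp280b was called lower (-0.55 ± 0.134, 0.0446). Among 15 CCCH-type Zc3h genes, Zc3h14 was called higher (0.34 ± 0.0546, 0.0123). The Zc3h genes (median 0.03) and the Zcchc genes (15, median 0.02) did not share a negative median, nor did the 14 Klf genes (0.13).

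Members were also placed by the order of protein-coding genes in the RefSeq table (GRCr8), used for order alone and looked at after the values were seen. All 120 matched by gene identifier, and 28 lie on chromosome 1 and 11 on chromosome 4. With at most 5 places from one member to the next, 24 members fell into 6 runs of 3 or more. The longest run, on chromosome 4, holds 7 members among 9 consecutive protein-coding genes: Zfp398, Zfp282, Zfp212, Zfp956, Zfp777, Zfp746 and Zfp467. In PTZ+Q808 versus control all 7 had negative log2 changes, from -0.43 (Zfp282) to -0.08 (Zfp746), with a median of -0.19. Zfp282 was the called one of the 7. The run had 6 of 7 negative in PTZ+Q808 versus PTZ (median -0.11) and 5 of 7 in PTZ versus control (median -0.14). On chromosome 1, Znf48, Zfp771, Znf768 and Zfp689 were negative in 4 of 4 (median -0.25) in PTZ+Q808 versus control, as were Zfp580, Zfp524 and Zfp579 in 3 of 3 (median -0.11). The other 3 runs, also on chromosome 1, were mixed: Zfp110, Zfp128, Zfp324 and Zfp446 had 3 of 4 negative (median -0.28), Zfp667, Zfp444 and Zfp787 had 2 of 3 (median -0.06), and Zfp180, Zfp111 and Zfp61 had 1 of 3 (median 0.03). Neighbouring zinc finger genes often arose by duplication, and how the authors' processing assigned reads that match several copies was not given in the sources used here, so values of close copies are uncertain.

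**Figure D4:**
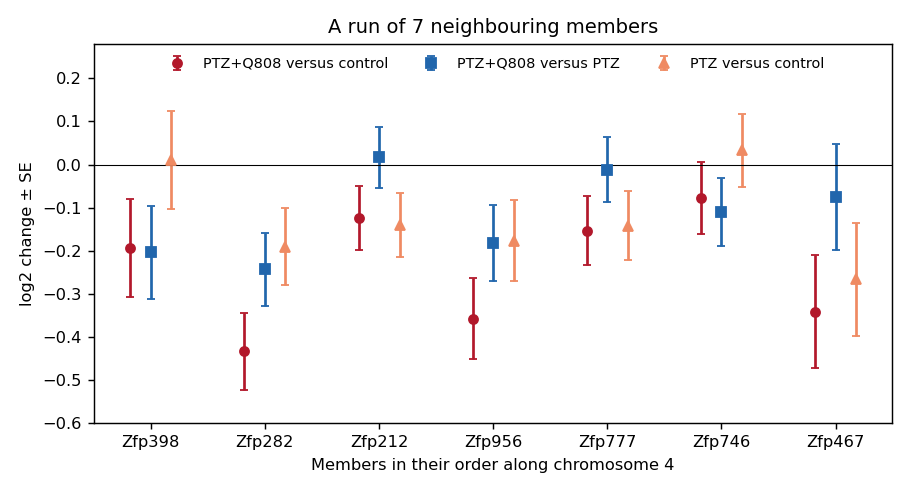
Log2 change with its standard error of 7 neighbouring members on chromosome 4, in gene order, for the 3 comparisons. In PTZ+Q808 versus control all 7 lie below 0, from -0.43 for Zfp282 to -0.08 for Zfp746, and Zfp282 was the called one.

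The comparison of PTZ with control asks what the convulsant model does to these genes. Of the members 0 were called, where 0.0314% of all genes tested were (4 of 12744), and the smallest adjusted p among members was 0.394. At an unadjusted p under 0.05 there were 18 members (15.0%, with 8.11% of all genes), 8 higher (6.67%, with 4.2%) and 10 lower (8.33%, with 3.92%). The log2 change was negative in 74 of 120, with a median of -0.03 in members and -0.01 in all genes. Without PTZ replicate 4, the library of lowest member mean, the medians were -0.001 in members and -0.003 in all genes. The libraries of PTZ and control did not overlap in 5 members (4.17%, with 3.03% of all genes). In 2 the PTZ libraries were higher (1.67%, with 1.44% of all genes), Zfp644 and Zfp846, and in 3 they were lower (2.5%, with 1.59%), Zfp46, Zfp623 and Zfp646, all named after their values were seen.

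Among members of smallest p, none of which passed, Zfp846 measured 5.94, 5.48, 5.51, 6.03 and 5.95 FPKM in PTZ and 5.1, 5.1, 4.85 and 4.67 FPKM in control. Every PTZ library was above every control library (log2 change 0.19 ± 0.0653, limma adjusted p = 0.502), while the PTZ+Q808 libraries, from 4.58 to 5.74 FPKM, spanned both. Zfp213 measured 4.79, 4.87, 4.69, 5.09 and 5.79 FPKM in PTZ and 6.13, 5.47, 6.23 and 5.93 FPKM in control. PTZ replicate 5 alone reached into the control range (-0.20 ± 0.064, adjusted p = 0.468). Zfp691 had -0.27 ± 0.11, Zfp358 -0.20 ± 0.0875 and Zfp275 -0.21 ± 0.0922, and Zfp445 and Zfp717 had 0.21 ± 0.069 and 0.19 ± 0.0693. In PTZ+Q808 versus control, which shares the controls, these were -0.26 ± 0.11 for Zfp691, -0.25 ± 0.0875 for Zfp358, -0.36 ± 0.0922 for Zfp275, 0.22 ± 0.069 for Zfp445 and 0.27 ± 0.0693 for Zfp717.

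The comparison of PTZ+Q808 with PTZ asks what Q808 adds in PTZ-exposed rats. No member was called and 0% of all genes tested were, with a smallest adjusted p among members of 0.76. Unadjusted p-values under 0.05 were found for 16 members (13.3%, with 6.14% of all genes), 14 of them lower (11.7%, with 3.04% of all genes) and 2 higher (1.67%, with 3.11%). The log2 change was negative in 75 of 120, with a median of -0.05 in members and -0.004 in all genes. The member median was -0.02 without PTZ replicate 2, -0.026 without PTZ+Q808 replicate 3 and -0.008 without the 3 libraries low in Ttr. The groups did not overlap in 2 members (1.67%, with 0.777% of all genes), Zfp394 (lower, 0.833%, with 0.33%) and Zfp575 (higher, 0.833%, with 0.447%).

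Zfp575 measured 8.65, 9.4, 9.78, 9.46 and 9.71 FPKM in PTZ+Q808, 7.21, 7.82, 8.6, 8.23 and 8.32 FPKM in PTZ, and 9.42, 7.86, 11.4 and 8.13 FPKM in control. All PTZ+Q808 libraries exceeded all PTZ libraries, and control overlapped both, with a log2 change of 0.20 ± 0.0835 in PTZ+Q808 versus PTZ (limma adjusted p = 0.76). Zfp111 measured 3.0, 1.8, 2.34, 3.67 and 2.11 FPKM in PTZ+Q808, 3.65, 3.59, 4.22, 3.64 and 3.25 FPKM in PTZ, and 3.78, 4.13, 3.84 and 3.34 FPKM in control. Of the PTZ+Q808 libraries, replicate 4 alone reached the other groups, and the change was -0.40 ± 0.119 in PTZ+Q808 versus PTZ (adjusted p = 0.76). Zfp282 had -0.24 ± 0.0845, and the higher members of smallest p besides Zfp575 were Zfp386 (0.24 ± 0.0945), Zfp180 (0.16 ± 0.0798) and Zfp414 (0.14 ± 0.0737).

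Taken per library, the mean log2(FPKM + 1) over the 120 members was 2.941, 2.964, 2.928, 3.043 and 2.927 in PTZ+Q808, 3.042, 3.069, 3.012, 2.914 and 3.01 in PTZ, and 3.024, 3.041, 3.039 and 3.041 in control. Control libraries were close together, and 4 of 5 PTZ+Q808 libraries lay below all of them, while PTZ+Q808 replicate 4 was at the control level. PTZ replicates 3, 4 and 5 (3.012, 2.914 and 3.01) also lay below all control libraries, and PTZ replicates 1 and 2 (3.042 and 3.069) above them. PTZ replicate 4 was the lowest of all. The 4 libraries of lowest member mean were the 4 of highest Fos, the immediate-early gene of neuronal activity. Fos was at 127, 126 and 142 FPKM in PTZ+Q808 replicates 1, 3 and 5 and at 175 FPKM in PTZ replicate 4, against 27 FPKM in PTZ+Q808 replicate 4 and 11.2 to 23.4 FPKM in control. The order did not hold throughout: PTZ replicate 3 had a Fos of 113 FPKM with a member mean of 3.012, and PTZ+Q808 replicate 2 had 38.2 FPKM with a member mean of 2.964. The part of these differences in Fos in the members' values was not tested. Over all genes tested the mean was 3.59 ± 0.0199 in PTZ+Q808, 3.59 ± 0.033 in PTZ and 3.588 ± 0.0235 in control (SD, n = 5, 5 and 4).

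**Figure D5:**
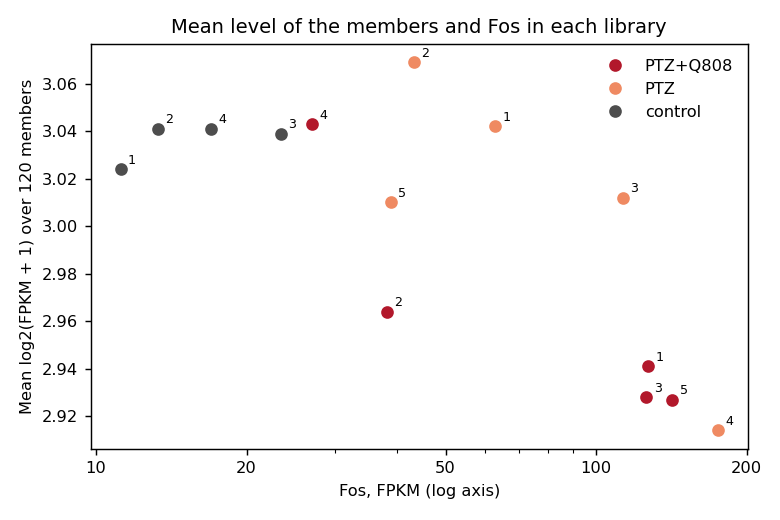
Mean log2(FPKM + 1) over the 120 members against Fos in FPKM (log axis) for each library of PTZ+Q808, PTZ and control, with replicate numbers. The 4 libraries with the highest Fos have the 4 lowest member means, and control libraries lie between 3.024 and 3.041.

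Values for markers of other cell types are given beside these results. The oligodendrocyte markers Mbp, Mog, Mag and Cnp had negative log2 changes in PTZ+Q808 versus control (4 of 4, median -0.45), and 0 of the 4 were called. Their mean log2 level ran from 7.131 to 8.005 in PTZ+Q808, 7.659 to 8.149 in PTZ and 7.603 to 8.51 in control, so the groups overlapped, and none was at 0 in any library. All 5 meningeal markers had positive values (median 0.72, 0 called), with mean log2 levels of 2.065 to 4.0 in PTZ+Q808, 2.032 to 4.178 in PTZ and 2.332 to 2.507 in control. Of 26 splicing regulators, 4 were called higher (15.4%, with 1.94% of all genes) and 1 lower (3.85%, with 0.934%) in PTZ+Q808 versus control, with Srsf5 at 148 ± 20.4 FPKM in PTZ+Q808, 111 ± 11.0 FPKM in PTZ and 88.5 ± 6.15 FPKM in control. Their part in the members' differences was not tested.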

How the data were processed

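The deposited values are FPKM per gene and sample, made by the authors. Per the submitters' processing notes the tools were HISAT2 and Bowtie2, Cufflinks and StringTie, HTSeq, DESeq, SAMtools and Trimmomatic, with neither roles nor versions given, and the genome build was not given in the sources used here. Per the labels' protocols, TRIzol was used to extract RNA, capture beads selected mRNA, and sequencing ran on a BGI T7. FPKM hold no read counts, so no counting interval is given, and the number of libraries limits precision.

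Genes with at least 1 FPKM in at least 4 libraries (12744) were fitted as log2(FPKM + 1) in limma 3.58.1 (R 4.3.3) with a mean-dependent prior, all 3 groups together (11 residual degrees of freedom). Tests were two-sided with Benjamini-Hochberg adjustment over all 12744 genes. Fold changes are on this log2 scale, which understates changes of low genes. The script was tested on simulated data with noise drawn separately for each gene and known changes larger than those of the called members. That test does not cover changes of their size or differences shared by the genes of a library. The members and all lists were chosen with earlier results of these data known, and the lists were described by counts and medians without a test. Named members were the called ones, the 4 of smallest p where fewer than 4 were called in a direction, the 8 of highest mean, the 2 on either side of the limit and the 2 highest of each role group. Other named genes were chosen after their values were seen. Promoters came from RefSeq (GRCr8), and figures were drawn with matplotlib 3.10.9. Alternatives were other pseudocounts, filters, scalings, weights, priors and terms, and leaving out libraries.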

Additional observations from a re-analysis of the deposited data

Results flagged for a closer look

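Of 96 groups of libraries examined, 4 had 1 library far from the others by Dixon's criterion, a share that chance gives in about 1 group in 20. Zfp638 in control replicate 2 was at 9.63 FPKM, and the other control libraries were at 7.36 to 7.55 FPKM. This library was also the one with high striatal markers, and the part of that in its Zfp638 level was not tested. Zfp106 in PTZ replicate 4 was at 37.3 FPKM, and the other PTZ libraries were at 40.9 to 41.7 FPKM. Zfp710 in PTZ replicate 3 was at 3.42 FPKM, and the others at 2.89 to 3.04 FPKM. The mean log2 level over the members was 3.02 in control replicate 1, and 3.04 in each of the other control libraries.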

How the results depend on the processing

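The median log2 change of the members kept its sign in every alternative. It moved from its value in the main fit by less than 0.0553, the pooled SD within groups of the library median over members. That SD is larger in size than the main medians of PTZ versus control (-0.027) and PTZ+Q808 versus PTZ (-0.046). In those comparisons a shift to 0 would also have stayed within it, so this limit cannot show that they are stable. The median ran from -0.085 to -0.059 in PTZ+Q808 versus control and from -0.05 to -0.001 in PTZ versus control. In PTZ+Q808 versus PTZ it ran from -0.064 to -0.008. In PTZ versus control and in PTZ+Q808 versus PTZ the count of called members was 0 in every alternative. In PTZ+Q808 versus control the 6 called members became 3 with no filter on low values, 10 with median-of-ratios scaling, 2 (both higher) with only the 2 groups fitted, 22 (6 higher and 16 lower) with weights per library, 15 with a term for Y-linked transcripts and 0 without the 3 libraries low in Ttr. In the same order, the counts over all genes were 190 (of 18961 tested), 393, 199, 1100, 564 and 0. Leaving out 1 library at a time gave 0 to 15 called members, with 17 to 673 called over all genes. The count over all genes was 366 in the main fit and fell to 4 with the replicate number as a block, where 0 members were called. Same-numbered libraries did not deviate together (correlations of -0.28 to 0.143). Such correlations within groups of 4 or 5 libraries cannot settle whether the numbers pair the samples. Zfp189 changed sign in PTZ+Q808 versus PTZ without PTZ+Q808 replicate 5 (-0.036), and ran to 0.235 without PTZ replicate 5. Of the other values for single members, 642 kept direction and call, 65 lost the call and 12 gained it. The 642 include values that were called in neither fit, so the losses weigh more among the called members. In PTZ+Q808 versus control, Zfp638 kept its call in 18 of 26 alternatives, and Zfp394 and Zfp282 each in 16 of 25. Zfp346 and Znf48 each kept it in 15 of 26, and Zfp646 in 8 of 25. The cause of these changes was not tested. The 5 PTZ+Q808, 5 PTZ and 4 control libraries limit what can be called, and members near 3 FPKM carry the least signal.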
